A study of Rattus norvegicus with 14 samples.

Results

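Shore tiles were defined here as 1 kb stretches of the rat genome that are themselves poor in measured cytosines but lie beside a stretch rich in them. Chromosomes 1 to 20 were divided into tiles of 1000 bp counted from position 1, and every distinct cytosine position found in any of 13 libraries was counted as listed. A tile with 60 or more listed cytosines was taken as CpG-dense, and there were 9193 of these. A shore tile had fewer than 40 listed cytosines, lay directly beside a CpG-dense tile (first tile out) or 1 tile further away (second tile out), and held at least 3 cytosines that were each present in 3 or more libraries of every group. The rule gave 2601 shore tiles, 1914 first and 687 second tiles out, among the 65034 tiles of chromosomes 1 to 20, X and Y that met the same coverage rule and were tested. Listing depends on coverage as well as on sequence, so a dense tile is dense in measured cytosines. CpG island annotation and gene annotation of the assembly behind the files, mRatBN7.2, were not used here, so tiles are given by position and no gene is assigned to them.

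In mammalian genomes most CpG sites carry 5-methylcytosine, which maintenance and de novo DNA methyltransferases write and TET enzymes help to remove. CpG islands, the dense clusters of CpG sites at many promoters, are largely kept free of the mark, and much of the genome between them is methylated. The flanks of islands, called shores, span the change from the one state to the other, and their methylation is known to differ between tissues more than that of the islands themselves.

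The samples came from the oesophagus of male rats of 8 to 9 weeks, in a study of surgical repair with a bi-layer silk fibroin scaffold, an acellular graft material. The day 1 group (5 libraries) was host tissue punched from within 2 mm of the defect 1 day after the operation. The week 1 group (4 libraries) was new tissue taken from the graft area 1 week after it, and 1 more week 1 sample was not analysed here. Non-surgical controls (NSC, 4 libraries) were full-thickness oesophagus. The groups therefore differ in the piece of tissue sampled as well as in surgery and time. In such bulk tissue a change in the mix of cells and a change within cells cannot be told apart. DNA was read by reduced representation bisulfite sequencing, in which MspI cuts the genome at CCGG sites, short fragments are kept, and unmethylated cytosines are converted so that they read as thymine. Each value is the methylated share of the reads at the cytosines of a tile, in percent, and differences between groups are in percentage points.

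The libraries listed 1432898 to 4181382 cytosines, with reads summed over them of 9676493 to 49782600. Day 1 replicate 2 was the shallowest and had a value in 847 of the 2601 shore tiles (32.6%), against 83.9% to 99.6% in the other libraries. The median number of reads in a covered shore tile was 18 in day 1 replicate 2 and 34 to 99 in the others. The coverage rule kept 15.3% of the 12540 first tiles and 5.55% of the 12377 second tiles that met the density and distance rules. The tiles that remained used 14308 cytosines, and 729 of them rested on exactly 3. No batch is given for any library. Whether each sample of a group was a different animal is not stated in the labels. The p-values therefore rest on the spread among these samples, part of which may be technical.

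The first tile out was mostly unmethylated and the second mostly methylated, in all groups. First tiles had a median methylation of 6.86% at day 1, 6.49% at week 1 and 5.47% in NSC. Second tiles had medians of 77.7% at day 1, 75.2% at week 1 and 66.3% in NSC. Both distances lay between the CpG-dense tiles, with medians of 0.603% at day 1, 0.556% at week 1 and 0.49% in NSC, and the tiles with fewer than 40 listed cytosines that lay further away (called distal here), with 87.7% at day 1, 84.9% at week 1 and 79.6% in NSC. The spread within each distance was wide. Among first tiles, 54.1% at day 1, 55.1% at week 1 and 56.9% in NSC were under 10%, while 13.7% at day 1, 12.9% at week 1 and 9.72% in NSC were at 80% or more. Among second tiles, those at 80% or more made up 47.3% at day 1, 43.8% at week 1 and 33.8% in NSC, and those under 10% made up 17.2% at day 1, 16.4% at week 1 and 16.6% in NSC. The class at 80% or more was thus larger after surgery at both distances, and the nearly unmethylated class of second tiles had about the same size in all groups.

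**Figure D1:**
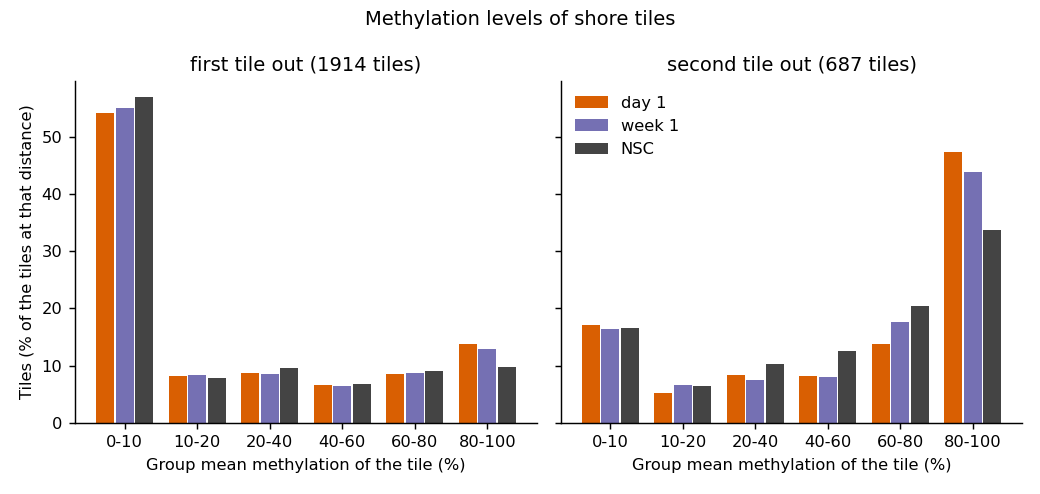
Share of first tiles out (left, 1914 tiles) and second tiles out (right, 687 tiles) in each class of group mean methylation, in percent, at day 1, at week 1 and in NSC. The class under 10% is the tallest for first tiles in every group, and the class at 80 to 100% is the tallest for second tiles, at 47.3% in day 1, 43.8% in week 1 and 33.8% in NSC.

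The values just inside and just outside the limits of the rule were as follows. First tiles with 35 to 39 listed cytosines averaged 20.8% at day 1, 19.7% at week 1 and 18.8% in NSC, and tiles in the same place with 40 to 44 listed averaged 16.3% at day 1, 16.2% at week 1 and 15.0% in NSC. Beside dense tiles of 60 to 64 listed cytosines the first tile averaged 35.2% at day 1, 34.5% at week 1 and 30.9% in NSC. Beside tiles of 55 to 59 listed cytosines, which are outside the rule, it averaged 40.7% at day 1, 39.6% at week 1 and 36.9% in NSC. Tiles 1 step beyond the second, also outside the rule, averaged 67.4% at day 1, 66.0% at week 1 and 61.0% in NSC, against 60.9% at day 1, 59.96% at week 1 and 55.99% in NSC for second tiles.

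Methylation was higher further out within the first tile, dipped at the border between the tiles and was higher again beyond it. This profile was taken over the 12 libraries other than day 1 replicate 2, at shore cytosines present in all 12, in bins of 250 bp from the edge of the nearest dense tile. In the bin nearest to the dense tile (1944 cytosines) the mean was 17.7% ± 0.69 (SD, n = 4) at day 1, 17.3% ± 0.62 (SD, n = 4) at week 1 and 15.3% ± 0.12 (SD, n = 4) in NSC. At 751 to 1000 bp it was 55.1% ± 0.64 at day 1, 53.8% ± 1.2 at week 1 and 49.2% ± 0.3 in NSC. The next bin, the first of the second tile, was lower again, at 48.8% ± 0.37 at day 1, 48.4% ± 1.4 at week 1 and 43.3% ± 0.72 in NSC. The outermost bin, at 1751 to 2000 bp, reached 67.3% ± 1.32 at day 1, 67.5% ± 1.65 at week 1 and 63.6% ± 0.39 in NSC. The tiles on the 2 sides of the border belong mostly to different flanks, so the dip compares different places.

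Day 1 and week 1 lay above NSC at every distance in these 12 libraries. The day 1 mean was above NSC by 2.35 points in the innermost bin, 5.87 points at 751 to 1000 bp, 5.53 points at 1001 to 1250 bp and 3.71 points in the outermost bin. The week 1 mean was above NSC by 1.95 points in the innermost bin, 4.57 points at 751 to 1000 bp, 5.09 points at 1001 to 1250 bp and 3.94 points in the outermost bin. In none of the 8 bins did a day 1 or week 1 library overlap with an NSC library. At the fewer cytosines present in all 13 libraries the pattern was less uniform, with differences of -0.99 to 3.94 points for day 1 minus NSC and -2.2 to 4.0 points for week 1 minus NSC. There the groups lay apart in 3 bins for day 1 and in 1 bin for week 1, and both comparisons share the NSC libraries.

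**Figure D2:**
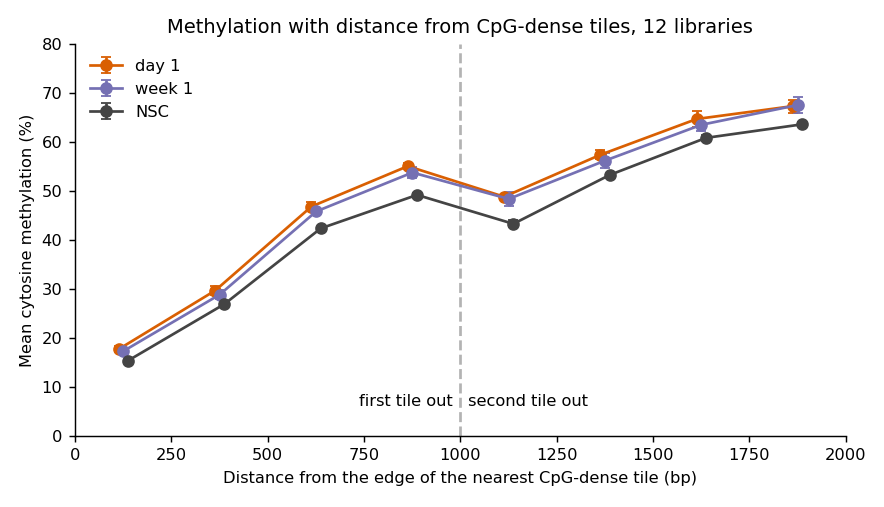
Mean methylation of shore cytosines, in percent, against distance from the edge of the nearest CpG-dense tile in bp, for day 1, week 1 and NSC (4 libraries each, day 1 replicate 2 left out). Points are group means and bars are SD, slightly offset sideways, and the dashed line separates first from second tiles out. The group means lie between 15.3% and 17.7% in the innermost bin and between 63.6% and 67.5% in the outermost, with NSC lowest throughout.

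The level of a shore tile went with that of the dense tile beside it, and less so further out. Next to dense tiles under 10% in NSC, the 1176 first tiles averaged 18.6% at day 1, 17.8% at week 1 and 16.1% in NSC. Next to dense tiles at 10% or more, the 215 first tiles averaged 64% at day 1, 62.3% at week 1 and 60.5% in NSC. For second tiles the corresponding means were 56.6% at day 1, 56.1% at week 1 and 52.8% in NSC (371 tiles) and 74.99% at day 1, 71.9% at week 1 and 68.2% in NSC (84 tiles). First tiles beside dense tiles of 80 or more listed cytosines averaged 21.6% at day 1, 21.1% at week 1 and 19.1% in NSC, and those beside dense tiles of 60 to 79 averaged 30.5% at day 1, 29.5% at week 1 and 27.3% in NSC. The denser neighbour thus went with the lower first tile in every group. These are descriptions over tiles and were not tested.

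The comparison of day 1 with NSC asked how tissue at the wound margin differs from unoperated oesophagus, and that of week 1 with NSC asked the same of tissue in the graft. The mean over the 482 first tiles with a value in all 13 libraries was 29.0%, 27.7%, 28.6%, 28.9% and 27.4% in the day 1 libraries, 27.4%, 27.6%, 25.7% and 27.3% in the week 1 libraries and 24.9%, 24.7%, 25.05% and 25.8% in the NSC libraries. All 5 day 1 libraries lay above all NSC libraries, whereas week 1 replicate 3 lay just below NSC replicate 4. The group means were 28.3% ± 0.72 (SD, n = 5) at day 1, 27.0% ± 0.86 (SD, n = 4) at week 1 and 25.1% ± 0.49 (SD, n = 4) in NSC. Day 1 was thus higher than NSC by 3.19 points and week 1 by 1.90 points, both larger than the SD of any group. In the subset of cytosines listed in all 13 libraries (165 tiles) the differences were 0.49 points for day 1 and -0.059 points for week 1, both smaller than the SD between libraries. Over the 1197 first tiles valued in the 12 libraries other than day 1 replicate 2 they were 3.75 points for day 1 and 2.80 points for week 1, and with reads pooled over all first tiles 3.65 points for day 1 and 3.42 points for week 1.

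The 175 second tiles with a value in all 13 libraries averaged 55%, 51.4%, 52.3%, 54.0% and 53.1% in the day 1 libraries, 53.9%, 55.1%, 51.6% and 53.4% in the week 1 libraries and 49.6%, 50.7%, 50.1% and 50.5% in the NSC libraries. Neither post-operative group overlapped with NSC. The group means were 53.2% ± 1.42 (SD, n = 5) at day 1, 53.5% ± 1.47 (SD, n = 4) at week 1 and 50.2% ± 0.48 (SD, n = 4) in NSC, which are differences from NSC of 2.97 points at day 1 and 3.30 points at week 1. In cytosines listed in all 13 libraries (58 tiles) they were 1.43 points at day 1 and 1.37 points at week 1. Without day 1 replicate 2, over the 484 second tiles valued in the other 12 libraries, they were 4.70 points at day 1 and 3.77 points at week 1. With reads pooled over all second tiles they were 1.54 points at day 1 and 2.48 points at week 1.

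Set against other tiles measured the same way, both distances lay between the dense and the distal tiles. Day 1 minus NSC was 0.76 points in dense tiles and 5.56 points in distal tiles, and week 1 minus NSC was 0.379 points in dense tiles and 3.54 points in distal tiles. The size of a difference depends on the room a tile has, so tiles at 20 to 80% were also compared alone, with the class set on NSC replicates 1 and 2 and the difference taken to NSC replicates 3 and 4. In that class, day 1 was above NSC by 5.40 points in 479 first tiles, 6.86 points in 296 second tiles, 3.96 points in 417 dense tiles and 10.4 points in 20891 distal tiles. For week 1 the values were 3.32 points in first tiles, 5.59 points in second tiles, 2.73 points in dense tiles and 7.77 points in distal tiles. In this class, too, dense tiles had the smallest and distal tiles the largest difference in both comparisons. Tiles with 40 to 59 listed cytosines, valued in all 13 libraries, differed by 2.47 points at day 1 and 1.76 points at week 1. At 20 to 80% such tiles differed by 8.97 points at day 1 and 7.26 points at week 1, more than either shore distance. Over all levels the order of the shore distances at day 1 depended on the tiles used and on whether reads were pooled. Tiles valued in all 13 libraries gave 3.19 points for first and 2.97 points for second tiles. All 1914 first and 687 second tiles, from which the 20 to 80% class was drawn, gave 2.84 and 4.91 points. With reads pooled over those same tiles the values were 3.65 points for first and 1.54 points for second tiles. These differences between kinds of tile were not tested.

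**Figure D3:**
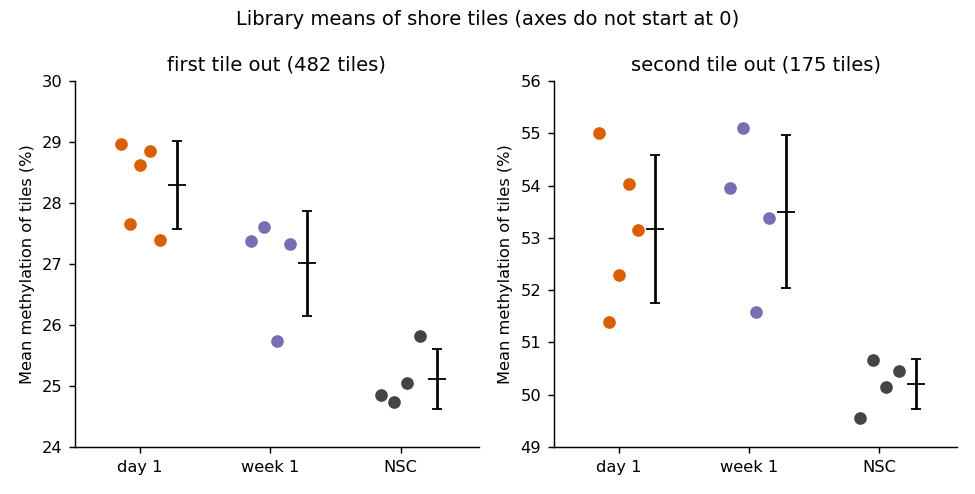
Mean methylation of shore tiles in each library, in percent, over the 482 first tiles out (left) and 175 second tiles out (right) with a value in all 13 libraries. Points are libraries and the bars beside them are group mean and SD, and neither axis starts at 0. Day 1 lies above NSC at both distances, and the lowest week 1 library for first tiles, at 25.7%, falls within the NSC range of 24.7% to 25.8%.

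Single tiles were tested with edgeR's quasi-likelihood test on methylated and unmethylated counts, fitted to all 65034 tiles and adjusted over all of them by Benjamini-Hochberg. A tile was called where the adjusted p was below 0.05 and the group means differed by at least 10 points. Between day 1 and NSC, 85 first and 49 second tiles rose, and 26 first and 24 second tiles fell. Together these were 7.07% of the shore tiles, against 8.91% of all tiles tested. By direction, 5.15% of the shore tiles rose and 1.92% fell, against 7.07% higher and 1.84% lower among all tiles. The shore tiles as a whole were therefore called about as often as any tile. The share was 5.80% of the 1914 first tiles and 10.6% of the 687 second tiles, beside 2.43% of dense and 10.2% of distal tiles, and the difference between these shares was not tested. The share of second tiles that fell was 3.49%, against 1.36% of first tiles and 2.07% of distal tiles. The median difference was 0.33 points over first tiles, 3.71 points over second tiles and 3.34 points over all tiles.

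The day 1 libraries lay entirely above the NSC libraries in 292 shore tiles (11.2%) and entirely below in 98 (3.77%), against 15.9% above and 2.99% below among all tiles. The split between higher and lower calls depends on the scaling. With limma on percent after subtracting each library's median over all tiles, 75 shore tiles were higher and 554 lower at day 1, and 43 were higher and 124 lower at week 1. Those medians were 76.0% to 85.3% at day 1, 76.7% to 81.9% at week 1 and 73.5% to 73.8% in NSC, so that subtracting them lowers a nearly unmethylated tile at day 1 or week 1 relative to NSC by construction. With cytosines listed in all 13 libraries, 223 shore tiles remained, of which 16 were higher and 13 lower at day 1, and 9 higher and 9 lower at week 1. The shares of all tiles called under these settings are not given here, so the counts do not show whether shore tiles differ from other tiles. Without day 1 replicate 1 or 4, or NSC replicate 1 or 3, the count of higher tiles at day 1 was 82, 77, 84 and 86, against 85 first plus 49 second tiles with all libraries, and without day 1 replicate 1 or 4 or NSC replicate 1 the count of lower tiles was 29, 27 and 29, against 50.

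**Figure D4:**
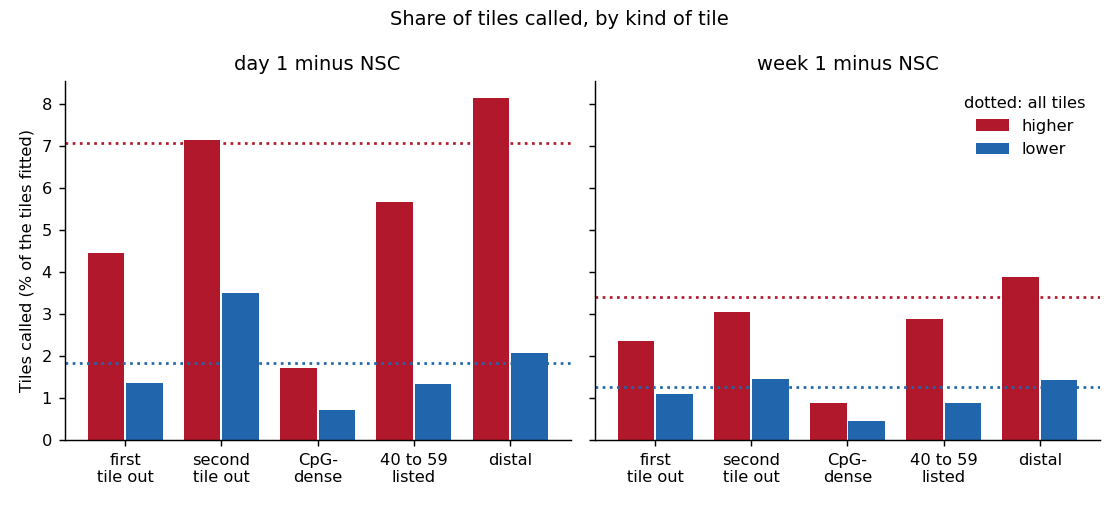
Share of tiles called higher (red) or lower (blue), in percent of the tiles fitted, by kind of tile, for day 1 minus NSC (left) and week 1 minus NSC (right). Dotted lines give the share over all tiles, 7.07% higher and 1.84% lower for day 1 and 3.41% and 1.27% for week 1. CpG-dense tiles have the lowest shares, and second tiles out have the highest share of lower calls at day 1, at 3.49%.

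The 85 first tiles that rose at day 1 had a median of 59.9% at day 1, 46.2% at week 1 and 15.4% in NSC, and 50 of them differed by 25 points or more. Of these 85, 47 were under 20% in NSC, out of 1241 such first tiles, and 36 were at 20 to 80%, out of 487. The 26 that fell had a median of 11.2% at day 1, 12.6% at week 1 and 42.4% in NSC. Among second tiles, the 49 that rose had a median of 82.6% at day 1, 77.0% at week 1 and 47.2% in NSC, and the 24 that fell had 19.7% at day 1, 22.4% at week 1 and 59.9% in NSC. These medians follow in part from the call, which needs at least 10 points. Calls at day 1 were found on all 20 chromosomes, from 3 to 32 each, with the most on chromosome 1, which also held the most shore tiles (341).

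Of the shore tiles, 188 first and 76 second tiles had at least 20 reads in every library, and the tiles described one by one are the largest differences among the called ones of these whose groups did not overlap. They are lettered A to P. The tile with the greatest gain at day 1 was tile A, chr1:79237001-79238000, with 9 cytosines that all lie within 68 bp, directly at the edge of its dense tile. Its methylation was 76.5%, 67.4%, 73.6%, 69.9% and 70.8% in the day 1 libraries, 54.3%, 70.8%, 79.2% and 47.7% in the week 1 libraries and 31.3%, 28.1%, 45.6% and 29.0% in the NSC libraries. Every post-operative library was above every NSC library, and the week 1 libraries were the most spread. The difference from NSC was 38.1 points at day 1 (edgeR adjusted p = 0.00198) and 29.5 points at week 1 (edgeR adjusted p = 0.0291). All 9 cytosines differed in the same direction in both comparisons. The adjoining dense tile moved with it, at 65.5% ± 13.8 at day 1, 59.4% ± 11.9 at week 1 and 33.2% ± 6.31 in NSC (edgeR adjusted p = 0.00549 at day 1 and 0.0516 at week 1). Both tiles stand close to the density limits, with 38 and 62 listed cytosines. Without week 1 replicate 2 or 3, or NSC replicate 1, 2 or 4, the edgeR adjusted p of tile A at week 1 was between 0.074 and 0.0902.

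Tile B, chr1:80202001-80203000, held 17 cytosines over 691 bp. It stood at 77.1%, 81.3%, 70.7%, 74.3% and 67.3% in the day 1 libraries, 61.9%, 76.1%, 62.3% and 67.0% in the week 1 libraries and 40.5%, 32.7%, 38.7% and 49.2% in the NSC libraries. In tile B both post-operative groups lay above NSC without overlap, but overlapped with each other. It had at least 160 reads in each library. Its log2 odds ratio to NSC was 2.11 ± 0.33 (SE) at day 1 (edgeR adjusted p = 0.000274) and 1.60 ± 0.35 (SE) at week 1 (edgeR adjusted p = 0.0074), and all 17 cytosines were higher in both. The dense tile on its inner side stayed near 0, at 0.481% at day 1, at 0 of 454 reads at week 1 (up to 0.661%) and at 2.71% in NSC. The second tile on its outer side rose as well, to 47.8% ± 15.4 at day 1 and 62.9% ± 18.7 at week 1, against 19.7% ± 6.55 in NSC (edgeR adjusted p = 0.0351 at day 1 and 0.00942 at week 1). Tile B is thus a flank in which both tiles out gained methylation beside a dense tile that did not pass the test. Tile C, chr10:101205001-101206000, was more methylated in every group. It averaged 91.8% ± 3.08 (SD, n = 5) at day 1, 85.5% ± 2.57 (SD, n = 4) at week 1 and 69.9% ± 6.04 (SD, n = 4) in NSC, and passed the test at day 1 (edgeR adjusted p = 0.0108) but not at week 1 (edgeR adjusted p = 0.197).

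The first tile with the greatest loss at day 1 was tile D, chr14:58864001-58865000. It had 11 cytosines between 222 and 663 bp from the dense tile. Its methylation was 7.21%, 7.41%, 13.9%, 16.2% and 24.5% in the day 1 libraries, 19.9%, 7.33%, 40.9% and 9.80% in the week 1 libraries and 76.1%, 70.6%, 73.3% and 63.1% in the NSC libraries. All post-operative libraries were well below all NSC libraries, and week 1 replicate 3 was the nearest to them. The log2 odds ratio was -3.98 ± 0.55 (SE) at day 1 (edgeR adjusted p = 7.46e-05) and -3.64 ± 0.58 (SE) at week 1 (edgeR adjusted p = 0.000754). All 11 cytosines were lower in both comparisons, and the tile was called under all 22 alternatives tried in each. The dense tile beside it was at 0.985% at day 1, 0.758% at week 1 and at 0 of 445 reads in NSC, which allows a level of up to 0.674%.

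Tile E, chr12:22500001-22501000, lay between methylated tiles. It averaged 15.6% ± 10 (SD, n = 5) at day 1, 26.4% ± 5.41 (SD, n = 4) at week 1 and 49.1% ± 6.22 (SD, n = 4) in NSC, with an edgeR adjusted p of 0.00147 at day 1 and 0.0779 at week 1. Its dense tile was at 96.6% at day 1, 95.02% at week 1 and 92.8% in NSC, and the tile on its other side was at 98.3% at day 1, 96.6% at week 1 and 97.9% in NSC. Tile E rests on 3 cytosines, of which 2 were lower at day 1. Tile F, chr16:19099001-19100000, was at 16.8%, 6.67%, 24.4%, 11.3% and 14.6% in the day 1 libraries, 19.1%, 0%, 13.8% and 15.9% in the week 1 libraries and 48.4%, 38.7%, 38.4% and 40.2% in the NSC libraries. The week 1 library at 0% had 35 reads, which allows a level of up to 8.57%. Tile F fell in both comparisons (edgeR adjusted p = 0.0208 at day 1 and 0.0247 at week 1). Its dense tile was lower too, at 23.7% ± 5.89 at day 1, 19.2% ± 11.1 at week 1 and 50.3% ± 13 in NSC (edgeR adjusted p = 0.0615 at day 1 and 0.0362 at week 1). Without day 1 replicate 4 or NSC replicate 1 the edgeR adjusted p of tile F at day 1 was 0.0592 and 0.0645, and without week 1 replicate 2 or 4 or NSC replicate 1 or 4 that at week 1 was between 0.0517 and 0.0725.

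Of the 49 second tiles that rose at day 1, 9 were under 20% in NSC, 35 at 20 to 80% and 5 at 80% or more. The 3 named gains were at intermediate to high methylation in NSC. Tile G, chr13:47490001-47491000, averaged 82.4% ± 8.73 (SD, n = 5) at day 1, 76.3% ± 6.37 (SD, n = 4) at week 1 and 59.1% ± 5.81 (SD, n = 4) in NSC. The first tile between it and the dense tile, which has 42 listed cytosines and is no shore tile, was at 65.1% at day 1, 52.03% at week 1 and 58.97% in NSC and did not pass the test. Tile H, chr10:88038001-88039000, averaged 82.6% ± 7.96 at day 1, 78.7% ± 7.07 at week 1 and 61.7% ± 5.28 in NSC, with its first tile at 12.5% at day 1, 6.62% at week 1 and 15.6% in NSC. Tile I, chr8:23955001-23956000, averaged 93.2% ± 3.11 at day 1, 87.3% ± 8.92 at week 1 and 77.0% ± 5.14 in NSC, with its first tile at 2.25% at day 1, at 0 of 115 reads at week 1 (up to 2.61%) and at 0 of 201 reads in NSC (up to 1.49%). In these 3 flanks the outer tile was higher at day 1 while the inner tile did not pass. The calls themselves were narrow, with edgeR adjusted p values of 0.0368 for tile G, 0.0479 for tile H and 0.04 for tile I. Tile G missed the threshold without any 1 library of day 1 (replicates 1, 2 and 4) or NSC (all 4 replicates), at 0.0503 to 0.107, and tile I without day 1 replicate 1, 2, 3 or 4 or any NSC replicate, at 0.051 to 0.106. Tile H missed it without day 1 replicate 1, 2, 3 or 4, week 1 replicate 1 or 2 or any NSC replicate, at 0.0523 to 0.144.

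Among these named second tiles the losses were larger than the gains and held under more settings. Tile J, chr1:135798001-135799000, was at 11.4%, 0%, 21.3%, 7.29% and 23.7% in the day 1 libraries, 19.5%, 13.3%, 27.2% and 12.5% in the week 1 libraries and 58.0%, 54.7%, 53.8% and 55.2% in the NSC libraries. The NSC libraries agreed closely, and the day 1 library at 0% had 63 reads, which allows up to 4.76%. The log2 odds ratio of tile J was -3.19 ± 0.57 (SE) at day 1 (edgeR adjusted p = 0.000738) and -2.53 ± 0.58 (SE) at week 1 (edgeR adjusted p = 0.0102). Its 5 cytosines were all lower in both comparisons, and the dense tile of that flank was under 1% in all groups. Tile K, chr4:166850001-166851000, with 4 cytosines in 99 bp, was at 24.4%, 6.45%, 15.9%, 27.1% and 11.3% in the day 1 libraries, 12.8%, 25%, 10.5% and 41.4% in the week 1 libraries and 60.2%, 51.3%, 55.3% and 65.8% in the NSC libraries. Its edgeR adjusted p was 0.0039 at day 1 and 0.0189 at week 1, and at week 1 it was 0.0979, 0.0516 and 0.0548 without week 1 replicate 1, NSC replicate 1 and NSC replicate 4.

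Tile L, chr15:16826001-16827000, had 11 cytosines and the lowest week 1 mean of the named tiles, 5.95%. It was at 12.8%, 18.6%, 9.49%, 7.69% and 13.6% in the day 1 libraries, 12.3%, 4.89%, 2.00% and 4.65% in the week 1 libraries and 37.5%, 36.7%, 41.2% and 35.6% in the NSC libraries. The edgeR adjusted p was 0.003 at day 1 and 0.000438 at week 1, and all 11 cytosines were lower in both. The difference between the post-operative groups did not pass (week 1 minus day 1 of -6.46 points, edgeR adjusted p = 0.796).

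Between week 1 and NSC fewer shore tiles changed. There were 66 higher and 31 lower, 3.73% of the shore tiles, against 4.68% of all tiles tested. By direction, 2.54% of the shore tiles rose, against 3.41% of all tiles, and 1.19% fell, against 1.27%. First tiles gave 45 higher and 21 lower (3.45%) and second tiles 21 higher and 10 lower (4.51%), beside 1.34% of dense and 5.33% of distal tiles. The week 1 libraries lay entirely above NSC in 235 shore tiles (9.03%) and entirely below in 109 (4.19%), against 12% and 3.47% of all tiles. As at day 1, the share of shore tiles called was near the background and somewhat below it. Without week 1 replicate 4 the counts were 24 higher and 17 lower, and without week 1 replicate 1 there were 41 higher. Without NSC replicate 1, 2, 3 or 4 there were 35, 42, 38 and 36 higher, and without NSC replicate 1 or 4 there were 17 lower in each case.

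The comparisons of day 1 and of week 1 with NSC share the 4 NSC libraries, so their calls are not independent. The first tiles that rose at week 1 had a median of 59.9% at day 1, 49.2% at week 1 and 14.0% in NSC, and the second tiles that fell had 20.6% at day 1, 20.6% at week 1 and 65.9% in NSC.

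The largest week 1 differences named tiles A, B, D, F, J, K and L again, and 4 others. Tile M, chr18:67289001-67290000, was at 88.8%, 69.6%, 81.7%, 86.1% and 72.8% in the day 1 libraries, 78.2%, 76.3%, 84.2% and 83.9% in the week 1 libraries and 54.4%, 57.7%, 63.3% and 56.3% in the NSC libraries. It rose beside a dense tile under 1% in all groups (edgeR adjusted p = 0.0111 at day 1 and 0.0249 at week 1). Without week 1 replicate 3 or 4, or NSC replicate 1, 2 or 4, the week 1 value was 0.0516 to 0.0838. Tile N, chr5:162630001-162631000, was at 20.1%, 17.6%, 61.0%, 16.2% and 20.1% in the day 1 libraries, 19.2%, 14.9%, 15.4% and 13.9% in the week 1 libraries and 42.8%, 49.3%, 69.9% and 39.4% in the NSC libraries. The week 1 libraries all lay below NSC (edgeR adjusted p = 0.00504), while 1 of the 5 day 1 libraries lay within the NSC range (edgeR adjusted p = 0.0284 at day 1).

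Tiles O and P were the only second tiles that met the conditions for a gain at week 1, and both were near full methylation. Tile O, chr16:17917001-17918000, averaged 94.6% ± 2.14 (SD, n = 5) at day 1, 94.8% ± 2.4 (SD, n = 4) at week 1 and 82.8% ± 2.61 (SD, n = 4) in NSC (edgeR adjusted p = 0.00709 at day 1 and 0.0177 at week 1). In tile O the cytosines listed in all 13 libraries gave a week 1 difference of 0.831 points (edgeR adjusted p = 0.879), and without week 1 replicate 1, 2 or 4 or NSC replicate 3 the edgeR adjusted p was 0.0519 to 0.0616. The difference of tile O was 7.86 points thinned to 5 reads (edgeR adjusted p = 0.346) and 5.47 points with centred libraries (limma adjusted p = 0.0878). Tile P, chr17:17641001-17642000, was at 94.5%, 93.7%, 93.5% and 94.0% in the week 1 libraries and 81.8%, 84.3%, 79.3% and 87.8% in the NSC libraries (edgeR adjusted p = 0.00621). At day 1 tile P averaged 88.0% ± 1.11 and did not pass (edgeR adjusted p = 0.297). Its week 1 difference of 10.7 points was 9.34 points without NSC replicate 3, which is below the 10 points needed for a call. It was 4.82 points with the highest read counts left out (edgeR adjusted p = 0.694), 2.86 points with cytosines thinned to 5 reads (edgeR adjusted p = 0.856) and 4.17 points with centred libraries (limma adjusted p = 0.265).

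With each cytosine thinned to 5 reads, the day 1 calls of tiles C, E, F, G, H, I and L and the week 1 calls of tiles A, F, K, M and N were lost as well, with edgeR adjusted p values of 0.0553 to 0.373 and unchanged directions. Centred libraries gave limma adjusted p values of 0.053 for tile A at week 1 and of 0.0555, 0.0635 and 0.145 for tiles G, H and I at day 1. Leaving out the highest read counts gave 0.0695 for tile B at week 1 (edgeR), and limma without centring gave 0.0532 for tile N at week 1.

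**Figure D5:**
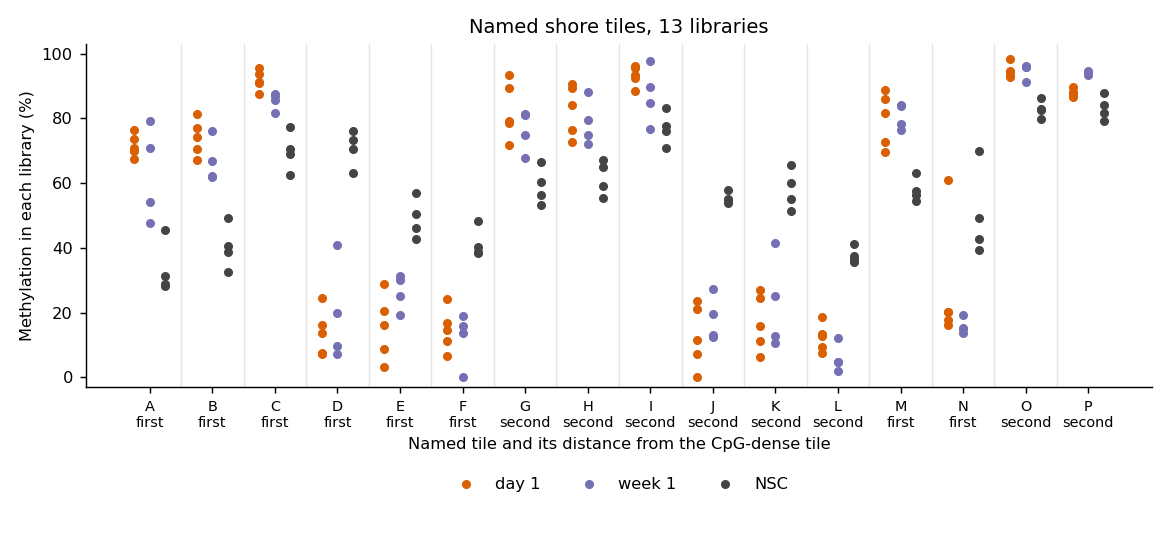
Methylation of tiles A to P, in percent, in each of the 13 libraries, with day 1 left, week 1 middle and NSC right in each tile. Each point is 1 library and the word under the letter gives the distance from the CpG-dense tile. Tiles D, E, F, J, K, L and N have lower group means at day 1 and week 1 than in NSC, and the other tiles have higher ones. Single libraries overlap with NSC in tile N at day 1 (61.0%), tile I at week 1 (76.6%) and tile P at day 1 (86.7% and 87.7%).

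No shore tile was called between week 1 and day 1. The edgeR test called 0 of 2601 shore tiles and 0% of all tiles, and limma called 0 as well. An unadjusted edgeR p below 0.05 was found in 127 shore tiles (4.88%), against 4028 of all tiles (6.19%). The week 1 libraries lay entirely above the day 1 libraries in 21 shore tiles (0.807%) and entirely below in 46 (1.77%), against 0.97% and 3% of all tiles. Over first tiles the library means were 27.0% at week 1 and 28.3% at day 1, a difference of -1.29 points with overlapping libraries, and over second tiles they were 53.5% at week 1 and 53.2% at day 1, a difference of 0.33 points with overlapping libraries. With each library's own tiles the difference over first tiles was -0.044 points. A difference between the post-operative groups was thus not detectable in the shore tiles with these libraries. In data simulated for day 1 minus NSC, edgeR found 8 in 100 tiles when the log2 odds ratio was set to 2. Differences of that size could therefore be missed here.

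Most dense tiles beside a called shore tile were not called themselves. Among all dense tiles, 1.71% rose and 0.72% fell at day 1, and 0.88% rose and 0.464% fell at week 1. Of the 85 first tiles that rose at day 1, 56 had a dense tile that could be tested, and 7 of those dense tiles rose too. Of the 26 that fell, 18 had such a dense tile and 3 of them fell. For second tiles none of the dense tiles changed in the same direction, in 31 flanks with a gain and 17 with a loss, and 1 changed in the opposite direction. The median dense tile beside the first tiles that rose was at 1.69% at day 1 and 1.38% in NSC. At week 1, 3 of 29 dense tiles rose with their first tile, 2 of 16 fell with it, and none of 12 and 7 moved with a second tile. The first-tile counts are higher shares than those over all dense tiles. A dense tile under 10% cannot fall by the 10 points a call needs. Neither these shares nor the difference in change between shore and dense tile were tested.

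Both flanks of 1 dense tile could be compared for 117 dense tiles with a first shore tile on each side. In none of them were both first tiles called, in either direction, at day 1 or at week 1, and 1 of the 2 was called in 7 at day 1 and in 9 at week 1. Of all first tiles, 5.80% were called at day 1 and 3.45% at week 1, so few double calls could be expected among 117 dense tiles. Their absence therefore does not show that the flanks change separately. In NSC both first tiles were under 20% in 51 of the 117 and both at 80% or more in 5, while 11 had 1 tile under 20% and the other at 80% or more. Along 1 flank, 115 pairs of a first and a second shore tile could be followed. Both tiles of a pair were called in the same direction in 3 pairs at day 1 and 2 at week 1, and in opposite directions in 0. The second tile alone was called in 11 pairs at day 1 and 5 at week 1, and the first alone in 5 pairs at day 1 and 2 at week 1. Among all shore tiles, 10.6% of second and 5.80% of first tiles were called at day 1, and 4.51% and 3.45% at week 1. Second tiles were thus called more often over all shore tiles as well, and the pair counts were not tested against these shares.

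Within these 115 pairs the second tile was the more methylated in 82 (71.3%) at day 1, 80 (69.6%) at week 1 and 84 (73.0%) in NSC. The median step, second minus first tile, was 11.9 points at day 1, 11.96 points at week 1 and 15.2 points in NSC, and the mean step was 21.5 points at day 1, 20.5 points at week 1 and 18.5 points in NSC. Median and mean thus ordered the groups differently. Over the 16 pairs with values in all 13 libraries the mean step per library was 6.63 ± 3.24 points (SD, n = 5) at day 1, 8.28 ± 1.41 (SD, n = 4) at week 1 and 5.64 ± 3.37 (SD, n = 4) in NSC, and these groups overlapped. No change of the typical step was detectable over these 16 pairs at this spread. Their mean steps were smaller than those over all 115 pairs. Over 63 pairs valued in the 12 libraries other than day 1 replicate 2, the mean step was above NSC by 2.45 points at day 1. At week 1 it was above NSC by 2.25 points, and neither difference was tested.

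Single steps passed a test in a few shore pairs, at shares somewhat above those over all neighbouring pairs, and this excess was not tested. The step was tested with limma in 8962 pairs of neighbouring tiles, of which 109 were shore pairs with enough libraries. Between day 1 and NSC, 6 shore pairs changed by at least 10 points, 5 of them to a larger step, which is 5.50% of the shore pairs against 4.34% of all pairs. Between week 1 and NSC, 5 changed, 3 of them to a larger step, which is 4.59% against 2.78% of all pairs. The week 1 count was 2 without NSC replicate 1, and 3 without week 1 replicate 1, 2 or 3 or NSC replicate 2 or 3. Between week 1 and day 1 limma called 0 shore pairs and 0% of all pairs, and 5 shore pairs and 513 of all pairs had an unadjusted p below 0.05. With weights by reads, limma called 14 shore pairs at day 1 and 8 at week 1. The share of all pairs called with these weights is not given here, so these counts cannot be set against 4.34% and 2.78%.

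The pair with the greatest gain in step was the same in both comparisons. Its second tile, chr7:31339001-31340000, was at 86.1%, 88.6%, 94.6% and 87.2% in 4 day 1 libraries, 96.0%, 75.9%, 70.0% and 86.7% in the week 1 libraries and 56.5%, 41.5%, 42.9% and 47.8% in the NSC libraries. Its first tile, chr7:31340001-31341000, had no methylated read among 605 at day 1, 401 at week 1 and 502 in NSC, which allows levels of up to 0.496%, 0.748% and 0.598%. Day 1 replicate 2 had no value in either. The second tile rested on 3 cytosines, the minimum, with 25, 29, 20 and 75 reads in the week 1 libraries. The step grew by 42.0 points at day 1 (limma adjusted p = 0.00459) and by 34.97 points at week 1 (limma adjusted p = 0.0106), and all of it lay in the outer tile.

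The pair with the greatest loss in step was likewise the same. Its second tile, chr1:52401001-52402000, was at 32.8%, 16.7%, 8.45% and 29.2% in 4 day 1 libraries, 24.1%, 15.0%, 17.2% and 18.6% in the week 1 libraries and 69.8%, 49.1%, 63.6% and 64.5% in the NSC libraries. Neither day 1 nor week 1 overlapped with NSC, while day 1 and week 1 overlapped with each other. Its first tile, chr1:52402001-52403000, had no methylated read among 166 at day 1 (up to 1.81%) and 271 in NSC (up to 1.11%) and averaged 1.09% at week 1. The step changed by -40.0 points at day 1 (limma adjusted p = 0.00705) and by -44.1 points at week 1 (limma adjusted p = 0.00621). Day 1 replicate 2 had no value here either. In both flanks a second tile at intermediate methylation in NSC moved, in opposite directions, beside a first tile that stayed unmethylated. Limits and intervals of this kind cover counting error only, and reads of 1 fragment are counted at each cytosine they cover.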

How the data were processed

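Per the labels' protocols, genomic DNA was cut with MspI, size-selected, bisulfite-converted and sequenced. The submitters' processing notes name the assembly mRatBN7.2 and the tools Bismark 0.23.0, methylKit 1.14.2, Trim Galore and FastQC, and give them no roles. For each cytosine the deposited files give a methylated count, a total count and a percent, and every listed cytosine has at least 5 reads. The authors' counts were used as deposited and percent was recomputed from their sums per tile. A minimum of 5 reads leaves shallow libraries with fewer and different cytosines. Conversion efficiency was not assessed here.

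Of 14 samples, 13 had a file. Groups came from the time label, and replicates were numbered in accession order and pair no samples. Pairs of libraries of 1 group (22 pairs) had a chi-square of 3.05 to 4.01 per shore tile. That ratio takes counts at neighbouring cytosines as independent, which they are not, so it cannot show whether any library repeats another. No library was treated as a repeat.

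Tiles were tested with edgeR 4.0.16 (R 4.3.3) with all 3 groups in 1 quasi-likelihood fit, 1 effect per library, group effects on the methylated count and a common dispersion. The SE of a log2 odds ratio is its size divided by the square root of F, an approximation. Steps between neighbouring tiles were tested with limma 3.58.1 on percent, leaving out libraries without a value in both tiles. Both were tested on simulated data for day 1 minus NSC. There edgeR found 8 in 100 tiles when the log2 odds ratio was set to 2. It found 77 in 100 when the ratio was set to 4, and it called 0 in 9800 unchanged tiles. The limma test of steps found 143 in 200 pairs whose simulated step differed by 40 points, and it called 2 unchanged pairs. Tiles without a call may therefore still differ. Means over shore tiles were given without a test. Alternatives were a minimum of 10 reads, cytosines in all 13 libraries, at least 5 cytosines, thinning to 5 reads, a limit at the 99.9th percentile of reads, limma with and without centring, only the groups compared, a difference of 25 points, pooled reads, all listed cytosines, isolated dense tiles, read weights and leaving out each library. Each library's own tiles, and tiles and pairs valued in the 12 libraries other than day 1 replicate 2, were chosen after seeing the data. Python 3.11.15, numpy 2.4.6, pandas 2.3.3 and matplotlib 3.10.9 were used.

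The shore rule and the comparisons were chosen with earlier results of these data known. Named tiles are, by distance and direction, the 3 largest differences from NSC among called tiles with at least 20 reads in all 13 libraries and groups that do not overlap, and no tile met the conditions for week 1 minus day 1. For pairs, the 2 largest changes of step were named.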

Additional observations from a re-analysis of the deposited data

Results flagged for a closer look

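Of 57 sets of libraries examined, 3 had 1 library far from the rest of its group, and chance alone gives about 1 in 20. In tile N the highest day 1 library, replicate 3, was at 61.0%, with the nearest other day 1 library at 20.1%. In tile O the lowest week 1 library, replicate 3, was at 91.2%, with the nearest other week 1 library at 95.8%. In the mean over first tiles out the lowest week 1 library, again replicate 3, was at 25.7%, with the nearest other week 1 library at 27.3%.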

How the results depend on the processing

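No paired analysis was possible because the labels carry no replicate numbers and replicates were numbered in accession order. Depth was a limit, since day 1 replicate 2 had a value in 847 of 2601 shore tiles and 25.3% of them had a value in all 13 libraries. Where fewer tiles or cytosines were used, fewer tiles were called by construction, and the cause of the other differences was not tested.

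For tiles called higher at day 1 (85 first and 49 second in the report), a minimum of 10 reads gave 56 of 535 tiles, cytosines in all 13 libraries 16 of 223, at least 5 cytosines 81 of 1340, centred limma 75 and a difference of 25 points 85, and leaving out 1 library gave 77 to 145. For lower at day 1, against 50, the same settings gave 18, 13, 28, 554 and 32, and leaving out 1 library 27 to 56. For higher at week 1, against 66, 10 reads gave 29, all 13 libraries 9, 5 cytosines 40 and centring 43, and leaving out 1 library 24 to 73. For lower at week 1, against 31, these gave 12, 9, 19 and 124, and leaving out 1 library 17 to 35. The other settings stayed within 1.5 times, and week 1 minus day 1 had 0 calls under all alternatives run.

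Cytosines in all 13 libraries gave mean differences of 0.49 points (first tiles, day 1 minus NSC), -0.059 (first, week 1), 1.43 (second, day 1) and 1.37 (second, week 1). Pooled reads gave 3.42 (first, week 1 minus NSC), -0.23 (first, week 1 minus day 1) and 1.54 (second, day 1). Own tiles gave 2.77 (first, week 1 minus NSC) and -0.044 (first, week 1 minus day 1), the 12 libraries gave 2.80 (first, week 1) and 4.70 (second, day 1), and 10 reads gave 0.74 (second, week 1; 25 tiles). The step over cytosines in all 13 libraries rested on 2 pairs, with -2.09 points for week 1 minus NSC and -4.13 for week 1 minus day 1, and with 10 reads no pair had a value in all 13 libraries. Shore pairs with a changed step numbered 0 and 0 with 10 reads (5 pairs tested) and 14 and 8 with read weights, at day 1 and week 1, and leaving out 1 library gave 4 to 8 at day 1 and 2 to 6 at week 1.

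Over the named tiles, 404 of the values under alternatives kept the call, 81 lost it and 0 turned the direction. These tiles were chosen as called with groups that do not overlap, so leaving out a library cannot turn their direction. The counts include fits without a library of the group outside the comparison, which leave the difference unchanged.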
